A study of Mus musculus with 59 samples.

Results

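The nucleus of the solitary tract (NTS), a region of the caudal brainstem, was compared between mice given the peptide treatment coded IP118/PY115 and mice given vehicle. The members were the 20 libraries labelled NTS, of 59 in the series: 10 from IP118/PY115 mice and 10 from vehicle mice, taken by region and treatment label. All were C57BL/6 mice that received a single intraperitoneal injection and were killed 4 h later. No age, genetic change or further treatment was given in the labels used here, and the series title names joint activation of receptors for PYY and GLP-1 as its subject. The tissue was laser-captured from frozen sections, and polyA RNA was read as a count per gene. The other 39 libraries came from the paraventricular nucleus (PVN) and the arcuate nucleus (ARC) of the hypothalamus under the same treatments.

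The NTS receives the sensory fibres of the vagus nerve from the gut and lies beside the area postrema, a site with a leaky blood-brain barrier. GLP-1 and PYY are gut hormones released after meals that lower food intake, and neurons of the NTS are among those they activate, directly or through the vagus. When a neuron fires strongly, calcium and cyclic AMP signals switch on immediate early genes such as Fos within minutes, and the transcription factors they encode then switch on later genes that alter synapses. Corticosterone, the stress hormone of mice, acts through the glucocorticoid receptor on another set of genes that is active in neurons, glia and vessel cells alike.

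Hoxa5 and Dbh, which mark the region, were detected in every library; Gcg, another of its markers, was at 0 CPM in 1 vehicle library. Hoxa5, a transcription factor gene of the caudal hindbrain, had 301 to 429 CPM (counts scaled by library size after trimmed-mean-of-M-values normalisation) in IP118/PY115 libraries and 305 to 422 CPM in vehicle libraries. Dbh, which encodes the enzyme that makes noradrenaline, had 98 to 218 CPM in IP118/PY115 libraries and 132 to 227 CPM in vehicle libraries. Markers of neighbouring tissue were present too: the summed level of 7 area postrema genes, Gfral among them, was 60.6 to 88.4 CPM in IP118/PY115 libraries and 63.7 to 91.4 CPM in vehicle libraries. Total counts were 8235745 to 28510118 in IP118/PY115 libraries and 6677086 to 27766549 in vehicle libraries (permutation test on mean log10 total, two-sided, p = 0.348).

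A pair of libraries went against their labels. The IP118/PY115 library with replicate number 1 (treated 1) and the vehicle library with replicate number 1 (vehicle 1) lay on the opposite group's side for most of the genes that separated the remaining 18 libraries. Of 162 genes called in those 18, at an adjusted p under 0.05, treated 1 lay nearer the IP118/PY115 mean for 11.7% and vehicle 1 for 90.1%. The other 9 IP118/PY115 libraries lay nearer it for 80.9% to 98.8% of these genes, and the other 9 vehicle libraries for 2.47% to 22.8%, though those 18 libraries chose the genes. The labels were kept as deposited. Whether the labels of these 2 libraries were exchanged was not tested; if they were, every fold change and p-value over all 20 libraries includes 1 wrongly labelled library in each group. Results are given for all 20 libraries and also without that pair. Since the pair was picked from its expression, p-values without it are too small. For the same reason, groups that do not overlap without the pair overstate the separation.

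**Figure D1:**
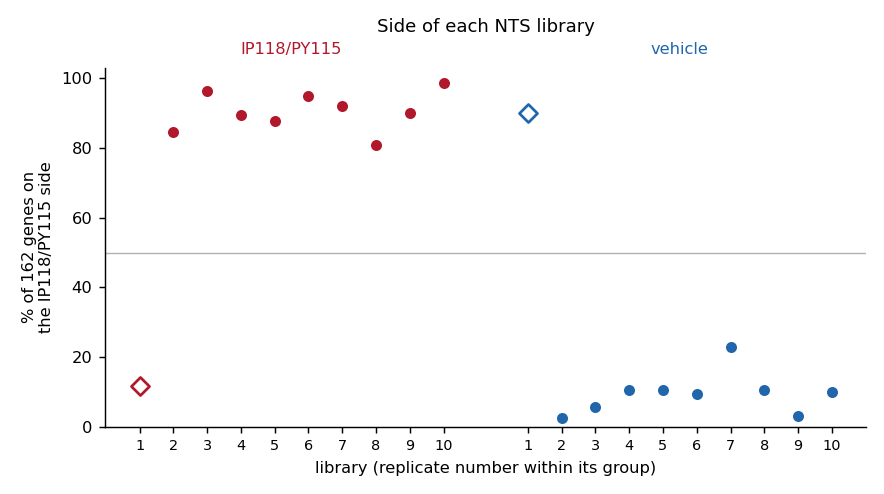
Share of the 162 genes called without treated 1 and vehicle 1 (vertical axis, %) for which each NTS library lay nearer the IP118/PY115 mean than the vehicle mean. Horizontal axis: replicate number within each group, IP118/PY115 in red on the left, vehicle in blue on the right. Open diamonds are the libraries numbered 1, at 11.7% for treated 1 and 90.1% for vehicle 1; every other IP118/PY115 library was at or above 80.9% and every other vehicle library at or below 22.8%.

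The bases just before the start are shown for 5 activity-induced and 2 glucocorticoid-responsive genes described below, because their promoters hold letters known from cyclic AMP and glucocorticoid response elements (RefSeq, GRCm38.p6, each read 5′ to 3′ on the strand of its gene). Capitals in the first 5 mark TGACG or its reverse complement CGTCA, the 5-base core of the cyclic AMP response element. Capitals in the last 2 mark a form of the glucocorticoid response element, GNACA and TGTNC with 3 bases of any kind between them. The stretches are chr12:85473740-85473889 (+) for Fos, chr7:19310046-19310145 (-) for Fosb, chr8:84978749-84978898 (-) for Junb, chr15:101266746-101266845 (+) for Nr4a1, chr6:85513590-85513739 (-) for Egr4, chr4:133240618-133240817 (+) for Map3k6 and chr10:21993640-21993889 (+) for Sgk1.
Fos: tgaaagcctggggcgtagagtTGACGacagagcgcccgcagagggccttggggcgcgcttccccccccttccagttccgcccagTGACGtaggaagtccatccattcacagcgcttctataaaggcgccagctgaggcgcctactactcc
Fosb: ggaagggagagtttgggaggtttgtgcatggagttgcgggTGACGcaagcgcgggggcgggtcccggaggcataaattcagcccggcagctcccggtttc
Junb: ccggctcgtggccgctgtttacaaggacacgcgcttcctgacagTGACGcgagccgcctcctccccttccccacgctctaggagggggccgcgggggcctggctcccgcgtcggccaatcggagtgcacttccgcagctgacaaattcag
Nr4a1: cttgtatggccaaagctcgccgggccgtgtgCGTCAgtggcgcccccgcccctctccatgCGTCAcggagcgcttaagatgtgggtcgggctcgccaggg
Egr4: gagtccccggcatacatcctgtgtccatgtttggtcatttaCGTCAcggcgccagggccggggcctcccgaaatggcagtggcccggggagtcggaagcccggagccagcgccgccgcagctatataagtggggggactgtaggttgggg
Map3k6: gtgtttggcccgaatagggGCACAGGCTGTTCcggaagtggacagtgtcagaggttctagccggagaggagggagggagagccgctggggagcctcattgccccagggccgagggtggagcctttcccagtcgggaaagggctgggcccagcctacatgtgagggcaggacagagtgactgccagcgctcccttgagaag
Sgk1: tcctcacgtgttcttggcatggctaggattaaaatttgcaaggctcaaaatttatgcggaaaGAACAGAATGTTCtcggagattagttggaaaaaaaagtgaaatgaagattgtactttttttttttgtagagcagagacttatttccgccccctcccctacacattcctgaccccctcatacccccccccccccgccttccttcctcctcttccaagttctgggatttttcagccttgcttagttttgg

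Letters were searched on both strands in the 250 bases before each start. TGACG was found in 20 of the 28 promoters of 19 immediate early genes, against 17.8% of all 32851 promoters of that length. The full element TGACGTCA, which contains TGACG, was found in 2 of the 28, those of Btg2 and Maff, against 1.55% of all promoters. Among the 30 promoters of 20 glucocorticoid-responsive genes, 3 held that form of the glucocorticoid response element (Map3k6, Mt1 and Sgk1), against 0.387% of all promoters, and 9 held TGACG. These are matches of letters and not measured binding sites.

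Activity-induced and glucocorticoid-responsive genes mostly had higher means in IP118/PY115 NTS than in vehicle NTS, but no gene passed the test over all 20 libraries. Of 13696 genes tested with edgeR's quasi-likelihood test, 0 (0.0%) had a Benjamini-Hochberg adjusted p under 0.05, and the smallest was 0.0892, for Map3k6. The log2 fold change was above 0 for 6881 genes (50.2%). At an unadjusted p under 0.05 there were 795 genes (5.8%), 437 higher genes (3.19%) and 358 lower genes (2.61%). DESeq2 on the same libraries called 59 higher (0.431%) and 7 lower (0.0511%), and limma-voom with quality weights called 18 higher (0.131%) and 1 lower (0.0073%). Without treated 1 and vehicle 1, edgeR called 135 higher (0.982%) and 27 lower (0.196%) of 13744 genes, and 61 of the 66 DESeq2 calls and all 19 voom calls were among them. Leaving out vehicle 1 alone gave 92 calls and leaving out treated 1 alone gave 90, while leaving out any one of the other 18 libraries gave 0. In the text below "called without the pair" means an adjusted p under 0.05 in edgeR over the 18 libraries, and log2 fold changes are IP118/PY115 over vehicle with their standard error. Labels name no cultures or animals for single libraries, so p-values measure the spread between libraries.

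No gene separated the groups over all 20 libraries (0.0% in each direction). Without the pair, the CPM ranges did not overlap for 54 genes higher in IP118/PY115 libraries (0.394%) and for 4 lower genes (0.0292%). The higher ones included Fos, Fosb, Junb, Egr4, Nr4a1, Map3k6, Klf15, Mertk and Slc2a1. The 4 lower ones were Fzd10, Sox2, Vps37b and Dtx4.

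The 30 genes with the smallest p held 27 higher and 3 lower genes, with adjusted p-values of 0.0892 to 0.142 over all 20 libraries. DESeq2 called 29 of them (0.482% of all genes), voom 18 (0.139%), and all 30 were called without the pair (1.18%). Since the 30 were picked by p from the same counts, such calls are not separate evidence. The 30 genes mixed roles. Map3k6, a stress-activated kinase gene (GRCm38 chr4:133240818-133252929), had 4.83, 6.22 and 11.8 CPM as lowest, median and highest IP118/PY115 values, against 2.35, 2.98 and 5.78 CPM in vehicle NTS. Its log2 fold change was 0.99 ± 0.18, and each of the 10 IP118/PY115 libraries lay above the vehicle median. Mxd4, which encodes a partner of MAX that opposes MYC, had 63.7, 87.3 and 104 CPM with IP118/PY115, against 54, 69 and 77.5 CPM with vehicle (log2 fold change 0.36 ± 0.07). Slc2a1, the glucose transporter GLUT1 of brain vessels and glia, had 121, 188 and 234 CPM with IP118/PY115, against 101, 124 and 200 CPM with vehicle (0.53 ± 0.11). For both genes the 9 IP118/PY115 libraries other than treated 1 lay above the 9 vehicle libraries other than vehicle 1.

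Other genes of the 30 act in vessels, immune cells and the cytoskeleton. F3, tissue factor, which starts blood clotting and is made by astrocytes, had a median of 90.1 CPM with IP118/PY115 and 60.7 CPM with vehicle (0.55 ± 0.11). Il1r1, the signalling receptor for interleukin 1, had 5.26 and 2.98 CPM as medians in IP118/PY115 and vehicle libraries (0.96 ± 0.23). Nrros, a gene of microglia and macrophages, had 6.99 and 3.51 CPM (0.89 ± 0.20), and Tnfrsf12a, the receptor for the cytokine TWEAK, had 13.7 and 7.36 CPM (0.89 ± 0.19). Tpm4, a tropomyosin gene, had a log2 fold change of 0.29 ± 0.07. DESeq2 over all 20 libraries called each of these 5 genes.

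The immediate early list named 24 genes, and 22 were detected well enough to test. Like the other response lists, it was written with earlier results of these data known. Of these 22, 21 had a higher mean with IP118/PY115 (50.2% of all genes had), 15 at an unadjusted p under 0.05 (3.19% of all genes), and DESeq2 called 9 as higher (0.431% of all genes). The median log2 fold change was 0.77, against 0.00053 over all 13696 genes, and 1.07 without the pair, when 15 were called (0.982% of all genes). Summed over the list, the level was 238, 602 and 721 CPM (lowest, median, highest) in IP118/PY115 libraries, against 226, 259 and 652 CPM in vehicle libraries. Treated 1 was the lowest of its group and vehicle 1 the highest of its own; the other 9 IP118/PY115 libraries were at or above 470 CPM and the other 9 vehicle libraries at or below 317 CPM.

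Fos (chr12:85473890-85477273), the standard marker of recent neuronal firing, had 8.70, 67.3 and 89.1 CPM with IP118/PY115, against 6.98, 16.4 and 75.4 CPM with vehicle. The groups overlapped through 1 library each: treated 1 had 8.70 CPM among IP118/PY115 libraries otherwise at 39.6 to 89.1 CPM, and vehicle 1 had 75.4 CPM among vehicle libraries otherwise at 6.98 to 27.1 CPM. Its log2 fold change was 1.52 ± 0.42 over all 20 libraries (adjusted p = 0.245, edgeR; 0.0459, DESeq2) and 2.11 ± 0.23 without the pair (adjusted p = 2.55e-05).

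Fosb, whose protein pairs with JUN proteins, had 0.862, 29.6 and 49 CPM with IP118/PY115, against 0.141, 1.77 and 39.8 CPM with vehicle. Treated 1 and vehicle 1 were those extremes, 0.862 and 39.8 CPM. The log2 fold change was 2.54 ± 0.73, and 4.38 ± 0.26 without the pair. DESeq2's call (adjusted p = 0.000298) rested on its replacement of the vehicle 1 count and was lost without replacement (adjusted p = 0.144).

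Other FOS and JUN family genes had values in the same order. Fosl2 had 6.81, 40.7 and 55.3 CPM with IP118/PY115, against 1.96, 5.86 and 47.6 CPM with vehicle, and a log2 fold change of 1.95 ± 0.47. Junb, the JUN family member induced most sharply by growth signals, had 16.4, 70.8 and 83.7 CPM with IP118/PY115, against 14.6, 21.4 and 73.4 CPM with vehicle. Its log2 fold change was 1.33 ± 0.30 over all libraries (DESeq2 adjusted p = 0.00797) and 1.76 ± 0.13 without the pair. Jun itself was close to even, at 0.12 over all 20 libraries. Fosl1 had at most 5.11 CPM with IP118/PY115 and 2.58 CPM with vehicle, too low for a stable fold change.

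Zinc-finger and nuclear-receptor members of the list followed. Egr4 had 1.64, 7.78 and 16.4 CPM with IP118/PY115, against 0, 1.03 and 7.02 CPM with vehicle, a log2 fold change of 2.46 ± 0.47 (DESeq2 adjusted p = 0.00393). Egr1, which encodes the zinc-finger factor used widely as a marker of synaptic activity, had 18, 104 and 145 CPM against 23.6, 33 and 122 CPM in IP118/PY115 and vehicle libraries (1.22 ± 0.34). Nr4a1, an orphan nuclear receptor gene, had 8.53, 40.4 and 57.7 CPM with IP118/PY115, against 8.46, 12.2 and 37.7 CPM with vehicle (1.39 ± 0.29; DESeq2 adjusted p = 0.00306). Its relative Nr4a3 had 6.38, 14.3 and 23 CPM with IP118/PY115, against 3.09, 5.55 and 15.8 CPM with vehicle (1.17 ± 0.27). The dendritic gene Arc and the neuron-restricted factor gene Npas4 had smaller values, 0.52 ± 0.18 and 0.66 ± 0.25. Egr2, Nr4a2 and Ier2 lay between 0.04 and 0.17, and Ier5, at -0.12, was the member with a lower mean.

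**Figure D2:**
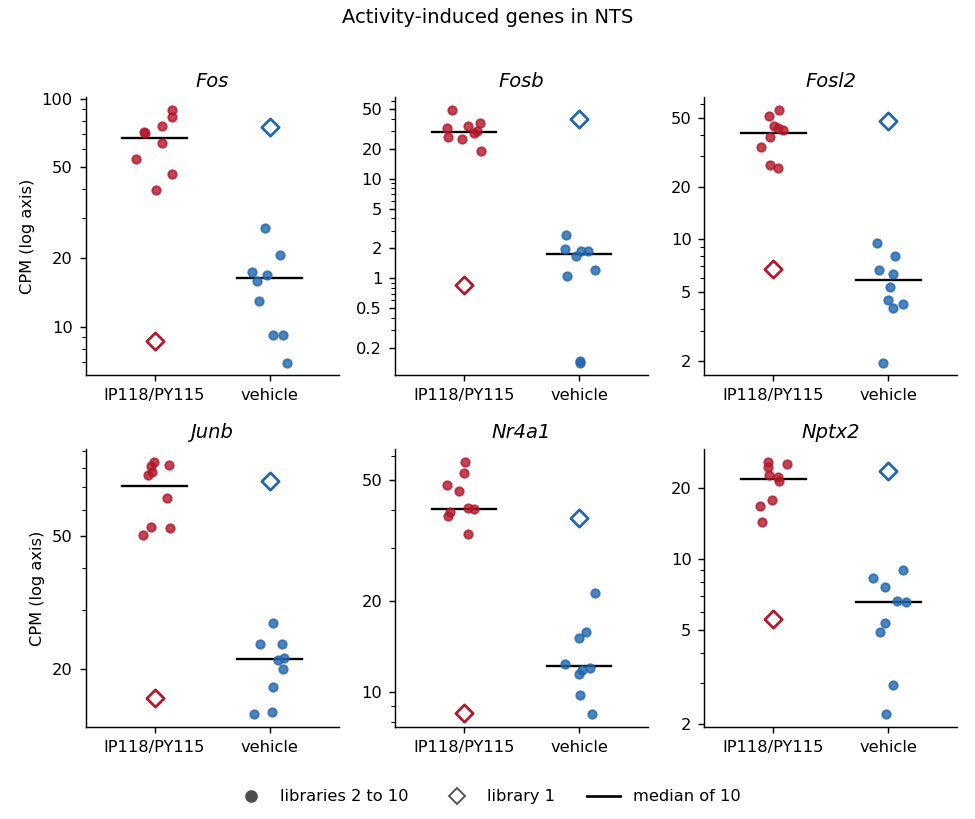
CPM of 6 activity-induced genes in each NTS library (log axis), IP118/PY115 in red on the left and vehicle in blue on the right of each panel. Filled points are libraries 2 to 10, open diamonds the library numbered 1, and black lines the median of 10. The diamonds stand among the opposite group, as for Fos at 8.70 CPM in treated 1 and 75.4 CPM in vehicle 1.

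Genes that follow the first wave were also mostly higher. Of 18 late activity-regulated effectors tested, 17 had a higher mean, 11 at an unadjusted p under 0.05, and the median log2 fold change was 0.32; DESeq2 called Nptx2 and Cdkn1a, and 8 were called without the pair. Over all genes these shares were 50.2% with a higher mean, 3.19% higher at an unadjusted p under 0.05, 0.431% called higher by DESeq2 and 0.982% called higher without the pair. Nptx2, a secreted pentraxin that gathers AMPA receptors at synapses, had 5.60, 21.9 and 26 CPM with IP118/PY115, against 2.2, 6.63 and 23.8 CPM with vehicle (1.36 ± 0.33). Without the pair its groups did not overlap, at 14.4 to 26 and 2.2 to 9.01 CPM in IP118/PY115 and vehicle libraries. Homer1, a scaffold gene of excitatory synapses, and Bdnf, a neurotrophin gene, had 0.46 ± 0.13 and 0.49 ± 0.17; Homer1 was called without the pair and Bdnf was not (adjusted p = 0.0698). Vgf, the precursor of several secreted peptides, had 0.43 ± 0.14. Outside the list, Rrad, a small GTPase that holds back calcium channels, had 3.96, 45 and 63.6 CPM with IP118/PY115, against 3.09, 6.87 and 52.1 CPM with vehicle (1.96 ± 0.50). Gpr3, a receptor that raises cyclic AMP without a ligand, had 3.19, 13.6 and 23.1 CPM with IP118/PY115, against 3.04, 5.38 and 18 CPM with vehicle (1.18 ± 0.30).

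Feedback regulators of the same signals gave smaller differences. Of 13 phosphatase, Sprouty and Spred genes that damp MAP kinase signalling, 10 had a higher mean (50.2% of all genes), 5 at an unadjusted p under 0.05 (3.19% of all genes), with a median of 0.14; DESeq2 called Dusp14 (0.431% of all genes) and 5 were called without the pair (0.982% of all genes). Dusp14 had 6.72, 9.68 and 12.3 CPM with IP118/PY115, against 4.40, 6.37 and 11.2 CPM with vehicle (0.55 ± 0.14). Dusp6, the phosphatase specific to ERK, was at 0.14, and Spry2 at 0.03. Of 14 genes of the CREB pathway and its brakes, 11 had a higher mean (50.2% of all genes), 4 at an unadjusted p under 0.05 (3.19% of all genes), with a median of 0.06. Sik1, a kinase that switches off CREB coactivators, had 10.4, 30.8 and 38.7 CPM with IP118/PY115, against 14.2, 18.7 and 28.6 CPM with vehicle (0.57 ± 0.17), and Crem, the cyclic AMP-induced repressor gene, had 0.47 ± 0.16. DESeq2 called none of the 14, and Sik1 and Per1 were the 2 called without the pair (0.982% of all genes).

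Glucocorticoid-responsive genes mostly had higher levels with IP118/PY115. All 22 tested members of 23 had a higher mean (50.2% of all genes), 21 at an unadjusted p under 0.05 (3.19% of all genes), and DESeq2 called 10 (0.431% of all genes). The median log2 fold change was 0.54, and 0.70 without the pair, when 20 were called (0.982% of all genes). Summed over the list, the level was 965, 1960 and 2516 CPM in IP118/PY115 libraries, against 1181, 1401 and 1865 CPM in vehicle libraries. Treated 1 (965 CPM) and vehicle 1 (1865 CPM) again lay beyond the others, which were at or above 1800 CPM in the IP118/PY115 group and at or below 1520 CPM in the vehicle group. Cdkn1a, Dusp1 and Per1 are also on activity lists, so the lists are not independent. This list too was written with earlier results of these data known, which limits the comparison with all genes.

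With Map3k6, the members of smallest p were Arrdc2, Klf15 and Mertk. Arrdc2, an arrestin-domain gene, had 1.98, 6.74 and 8.75 CPM with IP118/PY115, against 1.69, 2.73 and 4.84 CPM with vehicle (1.07 ± 0.21; DESeq2 adjusted p = 0.00155). Klf15, a Kruppel-like factor gene that the glucocorticoid receptor induces, had 27.3, 49.9 and 56.9 CPM with IP118/PY115, against 29.8, 35.5 and 41.4 CPM with vehicle (0.46 ± 0.09; DESeq2 adjusted p = 0.00306). Mertk, a receptor by which glia engulf debris, had 14.5, 34 and 43.6 CPM with IP118/PY115, against 14.7, 19.2 and 30.8 CPM with vehicle (0.73 ± 0.15). For each of these 3 genes treated 1 was the lowest of its group.

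Cdkn1a, which encodes the cell-cycle inhibitor p21, had 9.05, 49.2 and 68.3 CPM with IP118/PY115, against 7.57, 13.9 and 56.7 CPM with vehicle (1.5 ± 0.36; DESeq2 adjusted p = 0.0158). Hif3a, a hypoxia-inducible factor gene, had 6.81, 15.8 and 19.5 CPM with IP118/PY115, against 3.64, 6.71 and 18 CPM with vehicle (0.99 ± 0.23). Plin4, a lipid-droplet coat gene, had 1.70 ± 0.51 and was called without the pair only. Classic targets of the receptor, named here after their values were seen, also had higher means. Tsc22d3, which encodes the anti-inflammatory protein GILZ, had 99.8, 223 and 304 CPM with IP118/PY115, against 118, 138 and 229 CPM with vehicle (0.62 ± 0.16), and DESeq2 called it. Fkbp5, a chaperone that restrains the glucocorticoid receptor, had 30.6, 49.5 and 80.7 CPM with IP118/PY115, against 28.9, 32.8 and 61.2 CPM with vehicle (0.58 ± 0.15), and DESeq2 called it as well. Sgk1, a salt- and hormone-regulated kinase gene, had 23.7, 113 and 218 CPM with IP118/PY115, against 34.7, 59.4 and 122 CPM with vehicle (0.99 ± 0.31), and was called without the pair only. Corticosterone values were not analysed here.

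**Figure D3:**
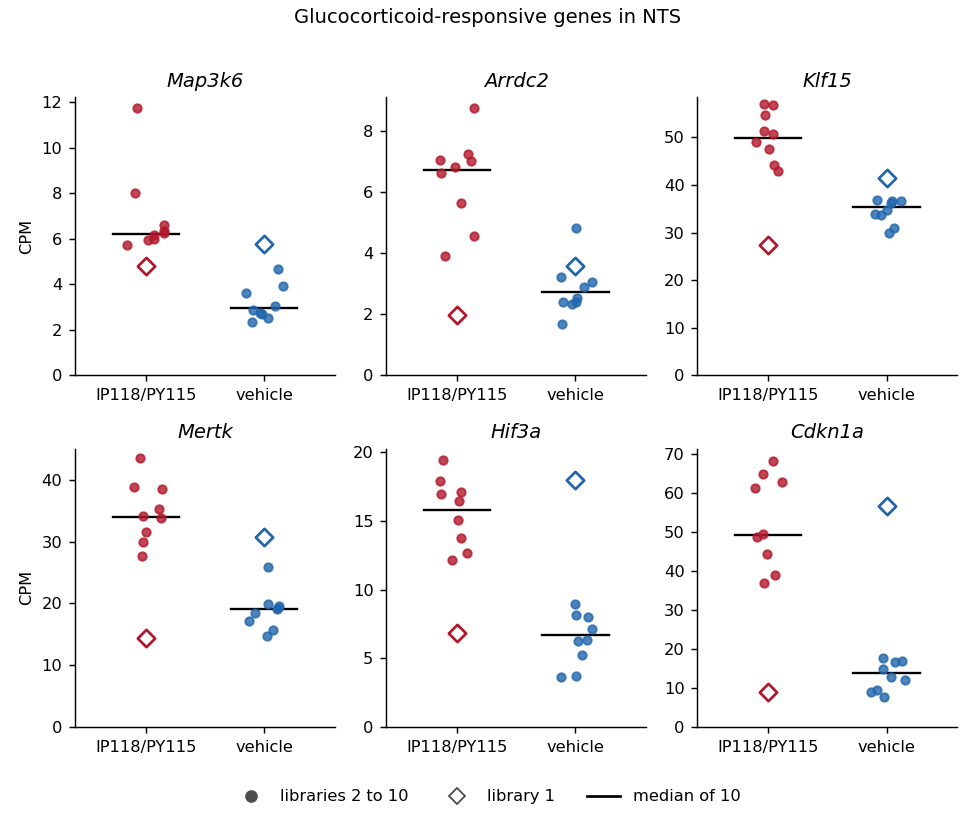
CPM of 6 glucocorticoid-responsive genes in each NTS library (linear axis from 0), IP118/PY115 in red on the left and vehicle in blue on the right of each panel. Filled points are libraries 2 to 10, open diamonds the library numbered 1, and black lines the median of 10. Klf15 medians were 49.9 CPM with IP118/PY115 and 35.5 CPM with vehicle, with treated 1 at 27.3 CPM and vehicle 1 at 41.4 CPM.

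Clock, metabolic and growth-arrest lists are read against all genes. Of these, 50.2% had a higher mean and 5.8% an unadjusted p under 0.05 (3.19% as higher). A DESeq2 call as higher was made for 0.431%, and a call as higher without the pair for 0.982%. Of 21 clock genes, 16 had a higher mean and 4 differed at an unadjusted p under 0.05, 3 of them higher: Per1 at 0.61 ± 0.16, Per2 at 0.36 ± 0.11 and Nfil3 at 0.36 ± 0.13. Dbp, an output gene of the clock, was the lower one, at -0.18 ± 0.07. DESeq2 called none of the 21, and Per1 and Per2 were called without the pair. Of 16 fasting and FoxO genes, 9 had a higher mean and the median was 0.03; Foxo1, Irs2 and Klf15 were called without the pair, all higher. Of 14 growth-arrest genes, 13 had a higher mean with a median of 0.11. DESeq2 called Cdkn1a and Btg2, and 3 were called higher without the pair. Per1, Klf15, Cdkn1a and Btg2 are also on the glucocorticoid-responsive or immediate early lists.

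Fewer genes were called lower than higher. Fzd10, a WNT receptor gene (chr5:128600844-128604093), had 8.58, 12.4 and 28.3 CPM with IP118/PY115, against 6.52, 28.8 and 38.9 CPM with vehicle, a log2 fold change of -1.03 ± 0.23 (DESeq2 adjusted p = 0.0159). Treated 1 was the highest IP118/PY115 library and vehicle 1 the lowest vehicle library; without them the ranges were 8.58 to 16.2 and 27.4 to 38.9 CPM in IP118/PY115 and vehicle NTS. Vps37b, which encodes a subunit of the ESCRT-I membrane-sorting complex, had 15.9, 17.7 and 19.8 CPM with IP118/PY115, against 15.5, 24.2 and 27.1 CPM with vehicle (-0.41 ± 0.08; DESeq2 adjusted p = 0.00155). All 10 IP118/PY115 libraries lay below the vehicle median for both genes.

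Sox2, a transcription factor gene of progenitors, astrocytes and ependyma, had 26.7, 34.5 and 61.5 CPM with IP118/PY115, against 22.6, 54.9 and 70.0 CPM with vehicle (-0.54 ± 0.16; adjusted p = 5.14e-06 without the pair). Sox9, an astrocyte factor gene named here after its values were seen, had a log2 fold change of -0.36 ± 0.09 and was called by DESeq2 (adjusted p = 0.0342). Foxj1, which drives the cilia of ependymal cells, had 6.30, 12.3 and 18.2 CPM with IP118/PY115, against 9.60, 17.2 and 20.6 CPM with vehicle (-0.48 ± 0.15), and was called without the pair only. Prokr2, a receptor for prokineticins, had 39.5, 49.4 and 75 CPM with IP118/PY115, against 33.4, 77.7 and 124 CPM with vehicle (-0.54 ± 0.17). The remaining large falls without the pair were Wnt7a, Ddit4l, Slc7a11, Plekho2, Ccdc190, 2810459M11Rik, Ecm2 and Cnn2, with log2 fold changes of -0.35 to -0.58 over all 20 libraries. In captured tissue, fewer cells of a type and less RNA per cell cannot be told apart.

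Cell type markers overlapped between groups. Of all genes, 50.2% had a higher mean and 5.8% an unadjusted p under 0.05. Without the pair, 0.982% of all genes were called higher and 0.196% lower. The summed level of 11 astrocyte genes was 4171 to 6862 CPM in IP118/PY115 NTS and 4932 to 7313 CPM in vehicle NTS; 4 were higher and 7 lower, and besides Sox9, Gjb6 was called without the pair, as higher. Summed mature oligodendrocyte genes ran from 2129 to 9902 CPM in IP118/PY115 libraries and from 2294 to 6985 CPM in vehicle libraries, with 10 of 11 genes higher and 0 at an unadjusted p under 0.05. Of 6 choroid plexus and ependyma genes tested, Foxj1 was the one at an unadjusted p under 0.05, and the sum was 54.4 to 74 CPM in IP118/PY115 NTS and 56 to 86.1 CPM in vehicle NTS. All 9 pan-neuronal genes had a higher mean, with a median log2 fold change of 0.07 and 0 at an unadjusted p under 0.05. Their sum was 5838 to 7667 CPM in IP118/PY115 NTS and 5726 to 7222 CPM in vehicle NTS. Of 15 NTS region genes, 4 were higher and 11 lower, 1 of the lower ones at an unadjusted p under 0.05. The microglia, endothelial and mural sums overlapped too. Of 12 microglia genes, C1qb and C1qc were higher at an unadjusted p under 0.05 (3.19% of all genes). DESeq2 over all 20 libraries called 1 endothelial gene as higher (0.431% of all genes). Ly6c1 (endothelial, higher) and Pdgfrb (mural, lower) were called without the pair. The part of cell makeup in the results above was not tested.

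**Figure D4:**
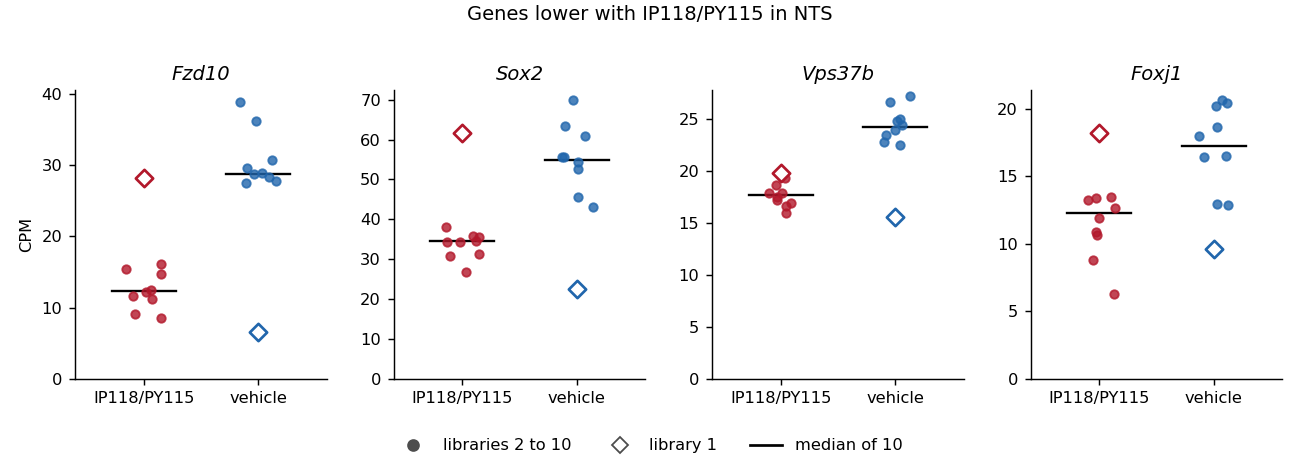
CPM of 4 genes lower with IP118/PY115 in each NTS library (linear axis from 0), IP118/PY115 in red on the left and vehicle in blue on the right of each panel. Filled points are libraries 2 to 10, open diamonds the library numbered 1, and black lines the median of 10. For Fzd10 the medians were 12.4 CPM with IP118/PY115 and 28.8 CPM with vehicle, with treated 1 at 28.3 CPM and vehicle 1 at 6.52 CPM.

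Cholesterol synthesis genes leaned lower without passing any test. Of 20 members, 17 had a lower mean with IP118/PY115, 6 at an unadjusted p under 0.05 (against 2.61% of all genes), the median was -0.07, and DESeq2 and edgeR without the pair each called 0. Sqle, squalene epoxidase, had 138, 161 and 171 CPM with IP118/PY115, against 156, 181 and 201 CPM with vehicle (-0.18 ± 0.05; adjusted p = 0.237, edgeR). Mvd, mevalonate decarboxylase, was at -0.29 ± 0.09.

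Peptide, receptor and transmitter genes of the region showed few differences. Of 17 NTS peptide genes tested, DESeq2 called 0, and Npy, an appetite-raising peptide made by catecholamine neurons, was the one called without the pair (0.982% of all genes as higher). It had 21.3, 33.9 and 59.3 CPM with IP118/PY115, against 21.6, 27 and 30.7 CPM with vehicle (0.48 ± 0.14; adjusted p = 0.255, edgeR, and 0.0264 without the pair). Gcg, the preproglucagon gene from which NTS neurons make GLP-1, ranged from 1.74 to 138 CPM in IP118/PY115 libraries and from 0 to 102 CPM in vehicle libraries, with medians of 7.64 and 6.18 CPM. A spread of that size limits the Gcg estimate, 0.41 ± 0.98. Pomc, Cartpt, Cck and Prlh had log2 fold changes of 0.03 ± 0.18, 0.15 ± 0.20, -0.01 ± 0.09 and 0.05 ± 0.54. Crh (1.54 ± 0.64) rested on 1 library, the IP118/PY115 library with replicate number 9, at 56.9 CPM, against a group median of 3.17 CPM.

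Receptors for the hormones in question were detected at low or even levels. Npy2r, the receptor for the circulating form of PYY, had 20.7, 39.2 and 63.4 CPM with IP118/PY115, against 24, 35.4 and 45.8 CPM with vehicle (0.08 ± 0.17). Glp1r, the GLP-1 receptor gene, reached 3.03 CPM with IP118/PY115 and 1.55 CPM with vehicle and did not pass the count filter over all 20 libraries. Calcr, the calcitonin receptor gene, was at -0.20 ± 0.17. Of 18 receptor-list genes tested, 2, Ramp2 and Nmur2, were higher at an unadjusted p under 0.05 (3.19% of all genes). Ramp2, which pairs with calcitonin-family receptors and is also a vessel gene, had 0.32 ± 0.10. It was the receptor-list member called without the pair (0.982% of all genes as higher). Of 11 catecholamine genes, 4 had a higher mean (50.2% of all genes) and 0 reached an unadjusted p under 0.05 (5.8% of all genes). Th was at 0.13 ± 0.10 and Dbh at -0.19 ± 0.13. None of the 10 transmitter identity genes and none of the 14 heat shock genes reached an unadjusted p under 0.05 either. In lists this short, 0 is near the 5.8% of all genes.

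Of 16 unfolded protein response genes, 14 had a higher mean, with a median of 0.06 and 1, Herpud1, at an unadjusted p under 0.05, near the 5.8% of all genes. Without the pair 10 of the 16 had a higher mean, the median was 0.03 and 0 were called. Of 19 inflammation genes, 11 were tested and 8 had a higher mean (50.2% of all genes), with a median of 0.27; Il1b, Il6 and Tnf were among those too low to test, DESeq2 called Il1r1 (0.431% of all genes), and Il1r1 and Nfkbia, the inhibitor of NF-kB, were called without the pair (0.982% of all genes).

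**Figure D5:**
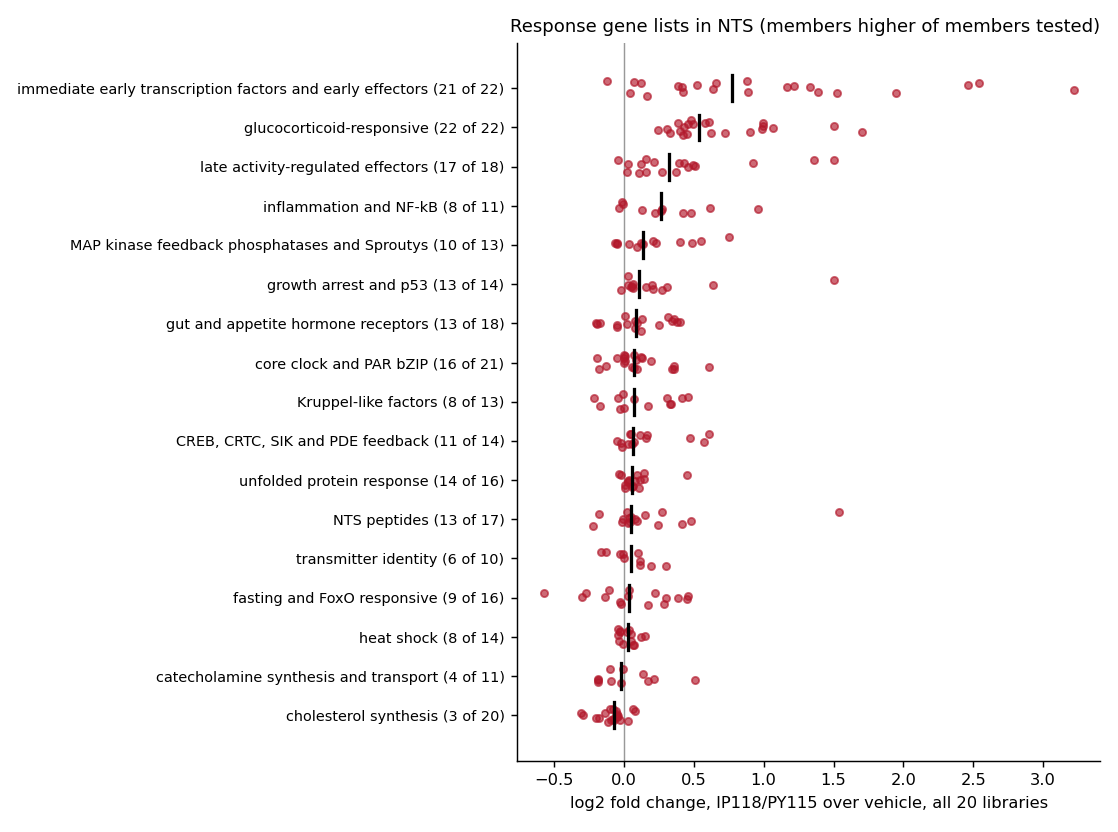
Log2 fold change, IP118/PY115 over vehicle over all 20 NTS libraries (horizontal axis), of each tested member of 17 response lists (points), with the list median as a black bar and the number of members higher of those tested in brackets. Medians were 0.77 for immediate early genes, 0.54 for glucocorticoid-responsive genes and -0.07 for cholesterol synthesis genes; the lists share members.

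The effect in NTS was set against the effects in PVN and ARC in 1 fit of all 59 libraries, testing the difference of the treatment effects. Regions of the same animals were used, and labels do not tie them, so libraries of different regions were taken as independent. The p-values and standard errors of the differences between regions rest on that. In that fit 32 NTS genes (0.223%), 152 PVN genes (1.06%) and 22 ARC genes (0.153%) were called. The NTS and PVN effects differed for 13 of 14379 genes (0.0904%), 1 higher (0.00695%) and 12 lower (0.0835%) in NTS relative to PVN; DESeq2 called 20 (0.139%). Without replicate 1 of every group the count was 62 (0.432%), 20 of them higher (0.139%) and 42 lower (0.292%). No difference between NTS and ARC was called by edgeR (0 genes, 0.0%), with 540 at an unadjusted p under 0.05 (3.76%) and 10 called by DESeq2 (0.0695%); without replicate 1 of every group edgeR called 35 (0.244%).

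Most of the 13 were genes higher with IP118/PY115 in PVN and even in NTS. Cyp51, a cholesterol synthesis enzyme gene, had a log2 fold change of -0.11 ± 0.08 in NTS and 0.55 ± 0.08 in PVN, a difference of -0.66 ± 0.11 (adjusted p = 0.000984, edgeR). Its mean level was 190 ± 17.2 CPM in IP118/PY115 NTS and 205 ± 11.1 CPM in vehicle NTS (SD, n = 10 each), and 192 ± 31.3 CPM in IP118/PY115 PVN and 131 ± 25.5 CPM in vehicle PVN. Hs3st2, a heparan sulfate sulfotransferase gene, had 0.23 ± 0.23 in NTS and 1.88 ± 0.26 in PVN, a difference of -1.64 ± 0.35 (adjusted p = 0.0298). Akap7, an anchor of protein kinase A, and Pde9a, a cyclic GMP phosphodiesterase gene, differed by -0.62 ± 0.13 and -0.52 ± 0.11. The gene higher in NTS relative to PVN was Trh, the precursor of thyrotropin-releasing hormone, and it rested on the IP118/PY115 library with replicate number 9, at 44.2 CPM in NTS. The same library held the high Crh value. In IP118/PY115 PVN, Trh averaged 569 CPM and Crh 246 CPM. Why that NTS library held both was not tested.

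With all libraries, edgeR called no activity gene as differing between NTS and PVN or ARC in its effect, and DESeq2 called Junb against PVN. Fos averaged 60.3 ± 23.8 CPM in IP118/PY115 NTS and 21.1 ± 19.9 CPM in vehicle NTS, 55.6 ± 26.3 CPM in IP118/PY115 PVN and 59 ± 16.9 CPM in vehicle PVN, and 41.4 ± 27.7 CPM in IP118/PY115 ARC and 34.2 ± 10.1 CPM in vehicle ARC. The difference of its NTS and PVN effects was 1.63 ± 0.48 (adjusted p = 0.378), and 2.13 without replicate 1 of every group (adjusted p = 0.00374). For Junb the same difference was 1.53 ± 0.35 (adjusted p = 0.0634, edgeR; 0.0178, DESeq2), and 1.95 without those libraries (adjusted p = 2.95e-05). Over all libraries the NTS effect also exceeded the PVN effect for Egr4 (1.785 ± 0.64), Rrad (1.51 ± 0.49), Fosl2 (1.25 ± 0.44) and Egr1 (1.14 ± 0.41), uncalled. Without those libraries edgeR called Rrad (2.26), Fosb (2.25), Egr4 (2.15), Fosl2 (1.95) and Egr1 as larger in NTS than in PVN. For some activity genes the NTS and PVN estimates were closer. Nptx2 had log2 fold changes of 1.37 ± 0.29 in NTS and 1.32 ± 0.28 in PVN, a difference of 0.05 ± 0.40. Nr4a3 had 1.17 ± 0.31 in NTS and 1.07 ± 0.30 in PVN, a difference of 0.10 ± 0.43. Against ARC without those libraries, Fosb, Rrad, Nptx2, Gpr3, Egr4, Junb and Fosl2 had larger effects in NTS, by 1.36 to 3.72. Removing them by their values in NTS makes these p-values too small.

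The effects on glucocorticoid-responsive genes had no called difference between regions. Cdkn1a had log2 fold changes of 1.5 ± 0.34 in NTS, 1.41 ± 0.35 in PVN and 1.18 ± 0.40 in ARC, and its NTS effect exceeded the PVN effect by 0.09 ± 0.48. Map3k6 had 0.996 ± 0.20 in NTS, 0.91 ± 0.20 in PVN and 0.69 ± 0.21 in ARC. Hif3a had 0.99 ± 0.26 in NTS, 0.78 ± 0.27 in PVN and 1.32 ± 0.30 in ARC. With standard errors of this size over all libraries, differences of moderate size between regions could not be detected. Without replicate 1 of every group, NTS minus PVN was -0.05 ± 0.25 for Cdkn1a, 0.06 ± 0.23 for Map3k6 and 0.30 ± 0.31 for Hif3a, uncalled. In the same order, NTS minus ARC was 0.42 ± 0.27, 0.19 ± 0.25 and -0.33 ± 0.33, also uncalled. Removing libraries by their values in NTS makes these errors too small. Sox2 had a lower mean in all 3 regions, with log2 fold changes of -0.53 ± 0.14 in NTS, -0.57 ± 0.15 in PVN and -0.34 ± 0.15 in ARC.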

How the data were processed

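Per the submitters' processing notes, reads were demultiplexed with bcl2fastq 2.20.0.422 and aligned with STAR 2.5.2a to GRCm38; the deposited values are whole-number counts per gene, and the counting tool and its strand setting are not given in the sources used here. Per the labels' protocols, 4 mm2 of each region per animal was laser-captured at 10 µm, and libraries were TruSeq stranded polyA. Of 21935 gene IDs, 21858 matched GENCODE M21 symbols. Genes were filtered with filterByExpr (minimum count 10), scaled by TMM and tested with edgeR 4.0.16 (quasi-likelihood, robust, R 4.3.3), Benjamini-Hochberg adjusted over all genes, two-sided, at 0.05; DESeq2 1.42.0 and limma 3.58.1 (voom) were alternatives, and regions were compared by an interaction in 1 fit of 59 libraries. The NTS fit was tested on simulated data. Samples were grouped by treatment and region labels; replicate numbers follow accession order and pair nothing. Members, lists and tests were chosen with earlier results of these data known. Named genes were the 30 smallest p, the 12 largest rises and 12 largest falls called without treated 1 and vehicle 1 (mean at least 5 CPM), a set of NTS peptide and receptor genes, up to 4 per response list and up to 10 per region difference; others are named after their values were seen. Overlapping and antisense genes are uncertain. Promoters came from RefSeq.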

Additional observations from a re-analysis of the deposited data

Results flagged for a closer look

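In groups of 10 libraries, a highest or lowest value that stood far from its nearest neighbour was looked for in 178 groups of values; 49 were found, where chance gives about 1 in 20. Vehicle 1 accounted for 30 and treated 1 for 13, so most of the 49 share a library and are not independent. Some groups belonged to genes named because they were called without vehicle 1 and treated 1, which favours extremes in those libraries. For such genes the 1 in 20 does not hold.

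Vehicle 1 stood apart as the highest vehicle library for activity genes: Fos (75.4 CPM), Fosb (39.8), Fosl1 (2.58), Fosl2 (47.6), Junb (73.4), Egr1 (122), Egr4 (7.02), Nr4a1 (37.7), Nr4a3 (15.8), Btg2 (44.1), Nptx2 (23.8), Homer1 (42.5), Plk2 (69.5), Rrad (52.1), Gpr3 (18), Dusp14 (11.2), Spred2 (70.5) and Sik1 (28.6). It was also highest for Cdkn1a (56.7 CPM), Hif3a (18), Plin4 (17.5), Per1 (82.7), Slc2a1 (200.4), Srxn1 (194), Rhou (68.6), Rasl11a (6.4) and Gcg (102). It was the lowest vehicle library for Vps37b (15.5 CPM), Fzd10 (6.52) and Wnt7a (10.2).

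Treated 1 stood apart as the lowest IP118/PY115 library for Nr4a1 (8.53 CPM), Junb (16.4), Egr1 (18), Cdkn1a (9.05), Dusp1 (11.7), Per1 (31.6), Per2 (18.4), Klf15 (27.3), Fam20a (19.99) and Srxn1 (116). It was the highest for Fzd10 (28.3 CPM), Sox2 (61.5) and Manf (99.7).

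Single values elsewhere were Map3k6 at 11.8 CPM and Mvd at 19.5 CPM in IP118/PY115 replicate 10, Klhl14 at 21.3 CPM in replicate 5, Prlh at 64.9 CPM in replicate 8, Gch1 at 17 CPM in replicate 4 and Crh at 56.9 CPM in replicate 9.

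The NTS effect differed from the PVN effect by a test of the difference itself, on the log2 scale as NTS minus PVN, for Cyp51 (-0.66), Fam117a (-1.28), Ift57 (-0.55), Akap7 (-0.62), Fam222b (-0.43), Zfp516 (-0.73), Hs3st2 (-1.64), Pde9a (-0.52), Rnf169 (-0.74) and Orc1 (-4.23, at low counts).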

How the results depend on the processing

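No paired analysis was possible because replicate numbers were given in accession order and the labels tie no library to an animal. The count of NTS genes called was 0 with all 20 libraries and 66 with DESeq2, 62 with DESeq2 without replacement of outlying counts, 19 with voom, 3 with an oligodendrocyte covariate, 32 in the joint fit and 6 at an adjusted p under 0.1. It was also 0 with RLE size factors, library totals alone, no count filter, a stricter count filter, and log10 total or library number as covariate. Leaving out 1 library gave 0 to 92, above 0 only without vehicle 1 (92) or treated 1 (90). Chosen after seeing the data, leaving out both gave 162 (DESeq2, 239), and leaving out the 4 libraries numbered 5738 to 5741, apart on the first principal component, gave 0. NTS minus PVN calls were 13, 20 with DESeq2 and 62 without replicate 1 of each group; NTS minus ARC calls were 0, 10 and 35. The medians of the immediate early and glucocorticoid lists stayed above 0 in 35 of 35 settings (0.66 to 1.07 and 0.49 to 0.70).

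Fold changes near 0 changed sign. Gcg (0.41) was -0.56 in DESeq2 without the pair, and -0.29 to 1.09 with 1 library left out. Npy2r (0.08) was -0.042 with voom, -0.0051 without the pair, -0.00185 in DESeq2 without the pair, and -0.025 to 0.15 with 1 left out. Pomc (0.03) was -0.0015, -0.011 and -0.0088 in those 3 settings, -0.021 without 5738 to 5741, and -0.062 to 0.10 with 1 left out. Prlh (0.05) was -0.066 without 5738 to 5741, and -0.26 to 0.25 with 1 left out. Cck (-0.01) was 0.0092 with voom, 0.0031 with log10 total as covariate, 0.0027 without the pair, 0.0052 in DESeq2 without the pair, 0.029 without 5738 to 5741, and -0.063 to 0.029 with 1 left out. The cause of these shifts was not tested, and depth limits genes under a few CPM, such as Fosl1 and Glp1r.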

Other observations

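Gcg was highest in the 4 NTS libraries with replicate numbers 1 and 2, at 89.7 and 138 CPM in IP118/PY115 libraries and 102 and 47.8 CPM in vehicle libraries. The other 16 libraries held 0 to 46.1 CPM. Gcg neurons form a small cluster in the caudal NTS, and the position of each captured section was not analysed here.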
